A study of Homo sapiens with 12 samples.

Results

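Heme biosynthesis is described here through 9 genes, chosen by name, with earlier results of these data known but no measured value in the rule, out of 58395 genes in the table. They are ALAS1 and ALAS2, which encode 5-aminolevulinate synthase, SLC25A38, ALAD, UROS, UROD, CPOX, PPOX and FECH. All 9 passed the filter on low counts that left 18286 genes for testing, with 400 to 14891 reads per gene and library. RNA of 3 human leukemia cell lines was sequenced in 4 libraries per line. The edited line K/VP.5/edit-3 (edit-3 below) is a single clone of K/VP.5, made with purified Cas9, a guide RNA and a single-strand repair template. The edit strengthens the splice site that joins exon 19 to intron 19 of TOP2A, the gene of topoisomerase IIα, and it was carried out in etoposide-resistant cells. K/VP.5 is a clonal, etoposide-resistant subline of K562, and K562 is the parental line, established from chronic myeloid leukemia in blast crisis. All 3 lines therefore share the K562 background, including its BCR-ABL fusion, and edit-3 also shares the drug selection behind K/VP.5. The labels state that 0.5 µM etoposide was added to the medium every other week, in a sentence that names all 3 lines, so it cannot be told whether K562 received it too. The labels do not name separate cultures for the 4 libraries, so the p-values below rest on the spread among libraries, which may be technical.

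Heme is made along a path that begins and ends in mitochondria. Glycine and succinyl-CoA are joined by 5-aminolevulinate synthase, the cytosolic enzymes build and trim the porphyrin ring, and the last oxidations and the insertion of iron take place back in mitochondria. ALAS1 serves housekeeping needs in most tissues and is held down by heme, whereas ALAS2 is the erythroid form, encoded on the X chromosome, whose messenger RNA carries an iron-responsive element near its start. K562 cells have erythroid features and can be driven to make hemoglobin, which is why these genes are often studied in them.

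Library totals ran from 25.3 M to 37.1 M reads, with a median of 29.6 M, and 0.712% to 1.22% of reads fell in mitochondrial genes. TOP2A, counted over all its transcripts, averaged 416 ± 25.1 CPM in edit-3 cells, 359 ± 14.5 CPM in K/VP.5 cells and 519 ± 25.8 CPM in K562 cells (SD, n = 4 each). CPM are read counts scaled to the effective library size. A gene count adds up transcripts with and without intron 19, so it does not check the edit itself. Of the 6 genes listed as erythroid line markers, all were expressed in every line. Of 8 markers of other cell types, MS4A1 and KRT5 had 0 reads in all 12 libraries, CD3E and CD14 were too low to test, and 4 were tested, among them EPCAM, PECAM1 and COL1A1. Their 8 levels summed to 335 to 379 CPM in edit-3, 166 to 186 CPM in K/VP.5 and 200.4 to 215 CPM in K562, and EPCAM held most of each sum. PECAM1, an endothelial and platelet adhesion gene, averaged 18.3 CPM in edit-3, 1.56 CPM in K/VP.5 and 32.6 CPM in K562, and COL1A1, a fibroblast collagen gene, averaged 7.55 CPM in edit-3, 18.8 CPM in K/VP.5 and 1.47 CPM in K562. Both differed in all 3 comparisons (K/VP.5 versus K562 log2 -4.39 for PECAM1 and 3.67 for COL1A1, adjusted p = 1.2e-09 and 6.5e-07). The part of these differences in the results below was not tested.

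Of the 9 genes, 5 passed the test in at least 1 comparison: ALAS2, ALAD, UROS, PPOX and FECH. FECH passed only in edit-3 versus K562, and 12 of 19 alternative settings ended that call. The share of all tested genes that passed in at least 1 comparison was not counted, and it cannot be below the 39.2% of edit-3 versus K562. Between K/VP.5 and K562, 2 of the 9 genes passed (adjusted p under 0.05, edgeR's quasi-likelihood test with Benjamini-Hochberg adjustment over all genes tested), where 36.6% of all tested genes did. ALAS2 was higher and UROS lower in K/VP.5. In edit-3 versus K/VP.5, 4 of 9 passed, where 23.6% of all tested genes did: UROS and PPOX were higher and ALAS2 and ALAD lower in edit-3. In edit-3 versus K562, 4 of 9 passed, where 39.2% of all tested genes did: PPOX and FECH were higher and ALAD and UROS lower in edit-3. Whether the 9 genes differ from all genes in these shares was not tested. The genes that passed were also exactly those whose 4 libraries did not overlap between the lines, a pattern seen in 37.4%, 26% and 34% of tested genes in the same order of comparisons. The median absolute log2 fold change of the 9 genes was 0.10, 0.12 and 0.18, against 0.30, 0.23 and 0.32 over all tested genes. These medians are not matched for level. Of the 18286 tested genes, 14096 had a mean of at least 1 CPM, whereas each of the 9 had at least 400 reads in every library. The 3 comparisons share libraries, so their results are not independent of each other.

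**Figure D1:**
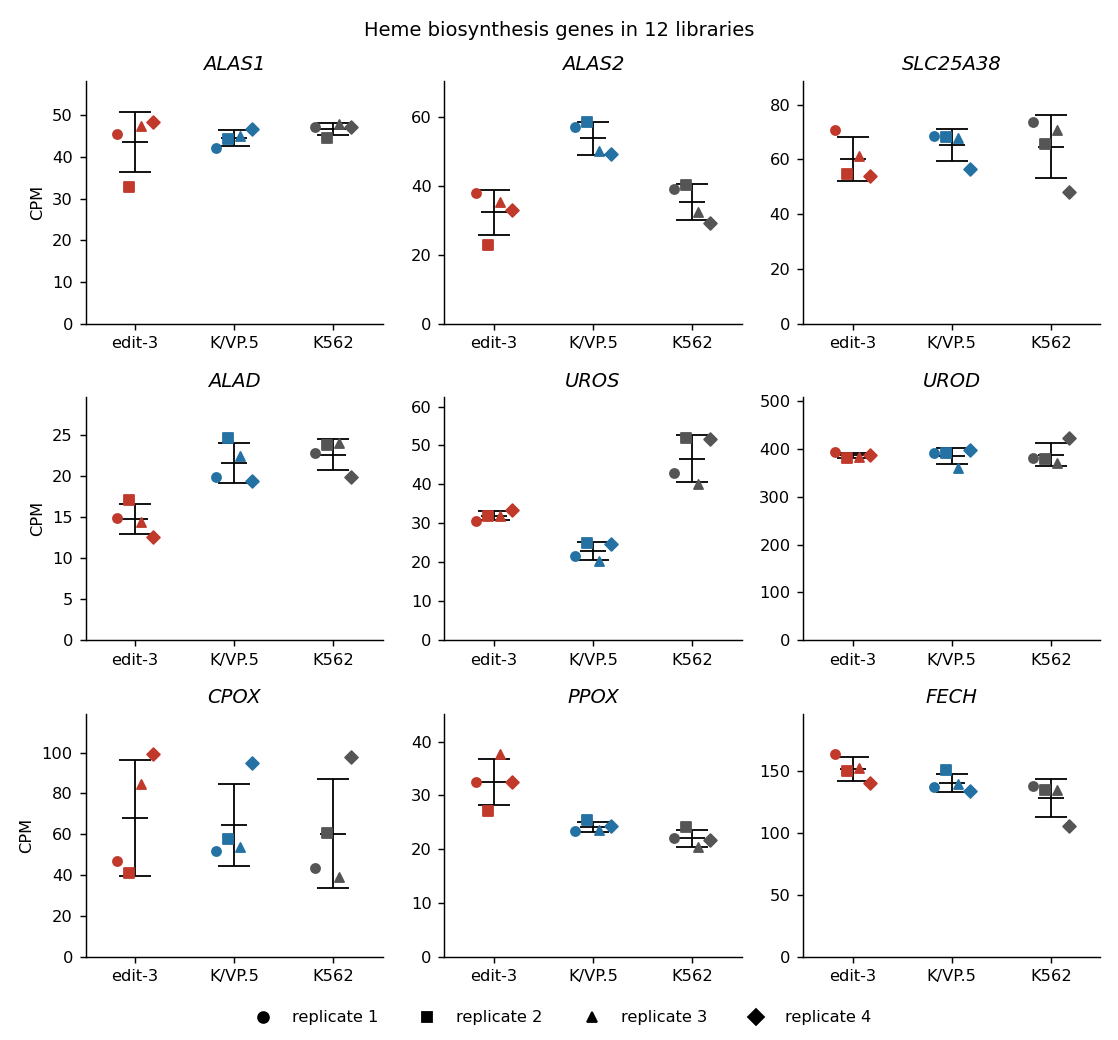
Level of each of the 9 heme biosynthesis genes in CPM (vertical axes, each from 0) in the 12 libraries, by line; points are libraries, and bars show mean ± SD (n = 4). The K/VP.5 libraries of ALAS2 (49.3 to 58.8 CPM) lie above all others, the K/VP.5 libraries of UROS (20.3 to 24.9 CPM) lie below all others, and UROD lies between 361 and 423 CPM throughout.

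The first step was examined through the 2 synthase genes. ALAS2 (ENSG00000158578) lies on the minus strand of chromosome X, 55009055 to 55031064 in GRCh38 with GENCODE 29 annotation. It stood at 38.1, 23.1, 35.4 and 33.2 CPM in edit-3 replicates 1 to 4, at 57.2, 58.8, 50.4 and 49.3 CPM in K/VP.5 cells, and at 39.3, 40.3, 32.6 and 29.3 CPM in K562. Every K/VP.5 library was above every library of the other lines, while edit-3 and K562 overlapped. ALAS2 was 1.52-fold higher in K/VP.5 than in K562 (95% interval 1.23 to 1.88, log2 0.61, SE 0.14, adjusted p = 0.0036). In edit-3 versus K/VP.5 it was 0.602-fold (95% interval 0.487 to 0.743, log2 -0.73, SE 0.14, adjusted p = 0.0016). Edit-3 replicate 2 was the lowest library, and without it the log2 difference from K/VP.5 was -0.60 with an adjusted p of 0.0015. In edit-3 versus K562 the log2 difference was -0.13 (95% interval -0.43 to 0.18), which did not pass.

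ALAS1 (ENSG00000023330, chromosome 3, 52198086 to 52214327, plus strand), the housekeeping synthase, passed no test. Its levels were 45.5, 32.8, 47.5 and 48.5 CPM in edit-3 cells, 42.2, 44.2, 45.1 and 46.8 CPM in K/VP.5 cells, and 47.2, 44.5, 47.9 and 47.1 CPM in K562. Only edit-3 replicate 2 stood below 40 CPM. The log2 difference was -0.07 in K/VP.5 versus K562, with a 95% interval of -0.29 to 0.16. It was -0.03 in edit-3 versus K/VP.5 (-0.25 to 0.19) and -0.10 in edit-3 versus K562 (-0.32 to 0.12). Per kilobase of the main transcript, the ratio of ALAS2 to ALAS1 was 0.890 ± 0.082 in edit-3, 1.46 ± 0.181 in K/VP.5 and 0.912 ± 0.158 in K562 (SD, n = 4 each). It ranged from 0.821 to 1.0 in edit-3, from 1.26 to 1.62 in K/VP.5 and from 0.745 to 1.09 in K562, so the K/VP.5 ratios did not overlap the others. The ratio combines both genes' values and carries no test of its own.

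The promoters of the synthase genes are shown because these forms are known for different control, and ALAS2 is the one that moved. Each runs from 250 bases before to 50 bases after the annotated start, 5′ to 3′ on the gene's strand, from RefSeq on GRCh38.p14. Capitals mark AGATAA or, on the other strand, TTATCT, a form of the motif bound by GATA factors. ALAS2 is at chrX:55030928-55031227 on the minus strand and ALAS1 at chr3:52197833-52198132 on the plus strand.
ALAS2: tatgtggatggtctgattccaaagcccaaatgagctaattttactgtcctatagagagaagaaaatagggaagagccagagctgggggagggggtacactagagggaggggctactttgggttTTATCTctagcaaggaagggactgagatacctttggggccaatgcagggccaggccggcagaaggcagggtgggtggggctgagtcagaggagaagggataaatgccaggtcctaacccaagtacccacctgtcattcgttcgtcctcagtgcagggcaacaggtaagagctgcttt
ALAS1: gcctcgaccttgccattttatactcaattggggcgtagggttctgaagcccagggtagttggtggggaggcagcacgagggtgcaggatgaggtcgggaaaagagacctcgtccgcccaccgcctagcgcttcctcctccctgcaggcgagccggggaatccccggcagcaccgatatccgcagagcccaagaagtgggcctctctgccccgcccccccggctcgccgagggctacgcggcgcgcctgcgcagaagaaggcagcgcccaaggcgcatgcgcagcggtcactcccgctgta
The ALAS2 window held 1 such match, whose first base is 127 bases before the start, and the ALAS1 window held none. AGATAA on either strand occurred in 10.3% of the 35116 promoter windows in the RefSeq table. A match in the letters is a description and does not show that a factor binds there. The transcribed part of the ALAS2 window contains the stretch known as the iron-responsive element, at chrX:55030942-55030967 on the minus strand, printed with its loop in capitals.
ALAS2 iron-responsive element: cgttcgtcctCAGTGCagggcaacag
The loop letters CAGTGN, searched on the transcribed strand, begin at base 21 of the transcribed part and occurred in the first 50 transcribed bases of 6.36% of windows. Read counts do not report on the translation that this element is known to regulate.

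SLC25A38 (ENSG00000144659, chromosome 3, 39383324 to 39397351, plus strand), the mitochondrial carrier that brings in glycine for this step, passed no test. It stood at 70.8, 54.6, 61.3 and 53.9 CPM in edit-3 cells, 68.6, 68.1, 68.0 and 56.6 CPM in K/VP.5 cells, and 73.9, 65.8, 70.7 and 48.2 CPM in K562. The lowest library of each line was replicate 4, and the 3 lines overlapped. Its log2 differences were 0.01 in K/VP.5 versus K562 (95% interval -0.26 to 0.29), -0.12 in edit-3 versus K/VP.5 (-0.39 to 0.15) and -0.10 in edit-3 versus K562 (-0.38 to 0.17). Its annotated pseudogene SLC25A38P1 held 84 reads over all 12 libraries and at most 15 in one, so few reads were assigned to that copy.

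ALAD and UROS, cytosolic enzymes of ring formation, both differed between lines. Both were lower in edit-3 than in K562, and in edit-3 versus K/VP.5 ALAD was lower and UROS higher. ALAD (ENSG00000148218, chromosome 9, 113386317 to 113401333, minus strand) encodes the zinc enzyme that joins aminolevulinate molecules into porphobilinogen. Its levels were 14.8, 17.1, 14.4 and 12.6 CPM in edit-3 cells, 19.9, 24.6, 22.4 and 19.3 CPM in K/VP.5 cells, and 22.8, 23.7, 23.9 and 19.8 CPM in K562. All edit-3 libraries were below all others, and K/VP.5 and K562 overlapped. ALAD was 0.683-fold in edit-3 versus K/VP.5 (95% interval 0.579 to 0.806, log2 -0.55, SE 0.11, adjusted p = 0.0021). In edit-3 versus K562 it was 0.653-fold (0.553 to 0.770, log2 -0.62, SE 0.11, adjusted p = 0.00043). Between K/VP.5 and K562 the log2 difference was -0.07, with a 95% interval of -0.30 to 0.17.

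UROS (ENSG00000188690, chromosome 10, 125784980 to 125823285, minus strand) encodes the synthase that closes the ring as uroporphyrinogen III. It showed the largest change of the 9 genes in K/VP.5 versus K562. Its levels were 30.5, 32.0, 32.0 and 33.5 CPM in edit-3 cells, 21.7, 24.9, 20.3 and 24.7 CPM in K/VP.5 cells, and 42.9, 52.0, 40.2 and 51.6 CPM in K562. The 3 lines were fully separated, with edit-3 between K/VP.5 and K562. UROS was 0.491-fold in K/VP.5 versus K562 (95% interval 0.424 to 0.569, log2 -1.03, SE 0.099, adjusted p = 1.2e-06). It was 1.40-fold higher in edit-3 than in K/VP.5 (1.21 to 1.62, log2 0.48, SE 0.099, adjusted p = 0.0023). Against K562, UROS in edit-3 was 0.686-fold (0.593 to 0.793, log2 -0.54, SE 0.098, adjusted p = 0.00041).

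UROD and CPOX, which trim the side chains of the ring, passed no test, and they were the least and the most variable of the 9 genes. UROD (ENSG00000126088, chromosome 1, 45012147 to 45015575, plus strand) encodes uroporphyrinogen decarboxylase. Its levels were 393, 381, 384 and 387 CPM in edit-3 cells, 391, 391, 361 and 397 CPM in K/VP.5 cells, and 381, 378, 370.4 and 423 CPM in K562. All 12 libraries therefore lay in 1 narrow band. Its log2 difference was -0.01 in K/VP.5 versus K562 (95% interval -0.14 to 0.12), 0.01 in edit-3 versus K/VP.5 (-0.13 to 0.14) and -0.01 in edit-3 versus K562 (-0.14 to 0.12). A change of the size seen for PPOX or UROS lies outside these intervals.

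CPOX (ENSG00000080819, chromosome 3, 98579446 to 98593723, minus strand) encodes coproporphyrinogen oxidase of the mitochondrial intermembrane space. It stood at 47.0, 41.1, 84.9 and 99.3 CPM in edit-3 cells, at 51.8, 57.7, 53.9 and 94.8 CPM in K/VP.5 cells, and at 43.6, 60.7, 39.2 and 97.9 CPM in K562. Replicate 4 was the highest library in every line, and edit-3 replicate 3 was also high. The log2 difference was 0.10 in K/VP.5 versus K562 (SE 0.37, 95% interval -0.71 to 0.91), 0.08 in edit-3 versus K/VP.5 (-0.73 to 0.89) and 0.18 in edit-3 versus K562 (-0.64 to 0.99). In K/VP.5 versus K562 the interval runs from 0.611-fold to 1.88-fold, so a change of the size seen for ALAS2 was not detectable for CPOX with this spread. Leaving out single libraries turned the sign in all 3 comparisons without a call, over -0.15 to 0.43, -0.18 to 0.30 and -0.08 to 0.51 in the same order.

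PPOX and FECH, the last enzymes, were the genes that were higher in edit-3 than in K562. PPOX (ENSG00000143224, chromosome 1, 161166410 to 161178013, plus strand) encodes protoporphyrinogen oxidase of the inner mitochondrial membrane. Its levels were 32.5, 27.1, 37.7 and 32.5 CPM in edit-3 cells, 23.3, 25.5, 23.6 and 24.3 CPM in K/VP.5 cells, and 22.0, 24, 20.3 and 21.6 CPM in K562. All edit-3 libraries were above all libraries of the other lines, which overlapped each other. PPOX was 1.34-fold higher in edit-3 than in K/VP.5 (95% interval 1.17 to 1.55, log2 0.43, SE 0.095, adjusted p = 0.0043). It was 1.47-fold higher in edit-3 than in K562 (1.28 to 1.70, log2 0.56, SE 0.096, adjusted p = 0.00026). In K/VP.5 versus K562 the log2 difference was 0.13 (95% interval -0.07 to 0.34). Of the merged PPOX exons, 1118 bases or 24.3% overlap exons of B4GALT3, a galactosyltransferase gene on the opposite strand, and the strand setting of the counting is not given. B4GALT3 itself averaged 96.9 CPM, and its log2 differences were 0.10 in K/VP.5 versus K562, -0.17 in edit-3 versus K/VP.5 and -0.07 in edit-3 versus K562, none passing (adjusted p of 0.49, 0.26 and 0.62).

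FECH (ENSG00000066926, chromosome 18, 57548283 to 57586772, minus strand) encodes ferrochelatase, the iron-sulfur enzyme that inserts iron into protoporphyrin. It stood at 163, 149, 152 and 140.1 CPM in edit-3 cells, at 137, 150.2, 139 and 133 CPM in K/VP.5 cells, and at 138, 134, 134 and 105 CPM in K562. The edit-3 libraries were all above the K562 libraries, by 140.1 against 137.6 CPM at the closest. FECH was 1.18-fold higher in edit-3 than in K562 (95% interval 1.04 to 1.35, log2 0.24, SE 0.087, adjusted p = 0.038). Without K562 replicate 4, the lowest library, the log2 difference was 0.16 and did not pass (adjusted p = 0.10), one of 12 alternative settings that ended the call. Against K/VP.5 the log2 difference of edit-3 was 0.11 (95% interval -0.07 to 0.30), and K/VP.5 versus K562 gave 0.13 (-0.05 to 0.32), neither passing. The FECH pseudogene FECHP1 had 0 reads in every library.

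**Figure D2:**
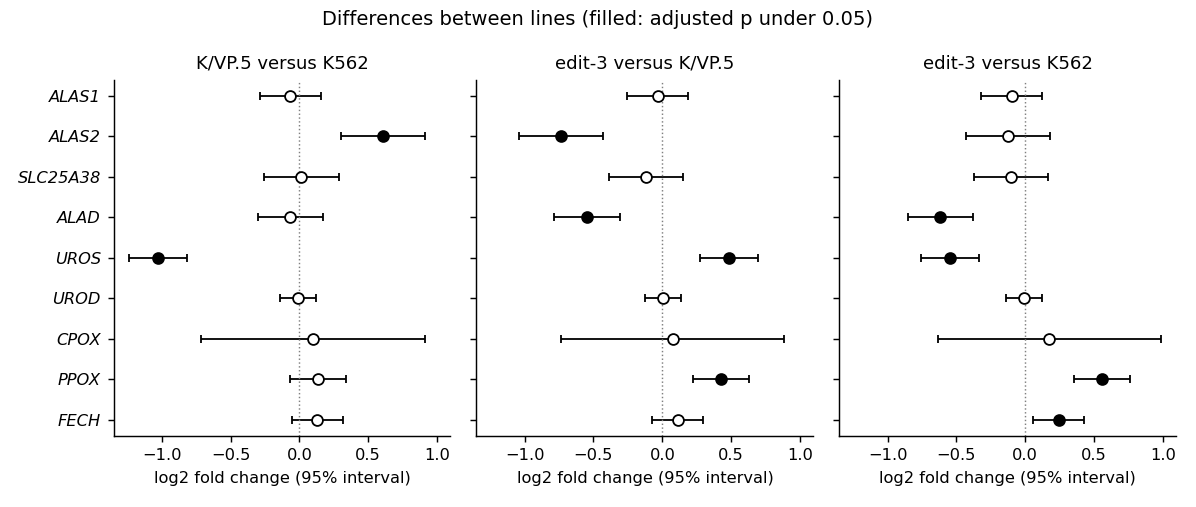
Log2 fold change of the 9 genes (vertical axis, in pathway order) in the 3 comparisons, with 95% intervals; filled points passed at an adjusted p under 0.05. UROS shows the largest shift (-1.03 in K/VP.5 versus K562), the CPOX intervals are the widest, and those of UROD are the narrowest.

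The promoter windows of CPOX and PPOX are shown because, with ALAS2, they were the members in which AGATAA was found. CPOX is at chr3:98593562-98593861 on the minus strand, and PPOX at chr1:161166396-161166695 on the plus strand, the second of its annotated starts. Capitals again mark AGATAA or TTATCT.
CPOX: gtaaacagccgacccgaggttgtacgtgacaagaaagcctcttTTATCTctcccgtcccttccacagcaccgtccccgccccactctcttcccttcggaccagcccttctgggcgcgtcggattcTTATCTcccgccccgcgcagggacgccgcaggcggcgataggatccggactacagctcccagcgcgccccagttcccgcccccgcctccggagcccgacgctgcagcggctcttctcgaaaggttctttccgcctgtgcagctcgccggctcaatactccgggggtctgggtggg
PPOX: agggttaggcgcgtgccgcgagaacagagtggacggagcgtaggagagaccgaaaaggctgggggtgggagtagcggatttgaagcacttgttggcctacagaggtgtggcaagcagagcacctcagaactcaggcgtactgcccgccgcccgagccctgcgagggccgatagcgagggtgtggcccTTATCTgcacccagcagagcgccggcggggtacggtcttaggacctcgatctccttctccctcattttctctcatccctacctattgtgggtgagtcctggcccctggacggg
CPOX held 2 matches, beginning 207 and 125 bases before the start, and 1.02% of all windows held 2 or more. The PPOX window held 1, beginning 63 bases before its start, and the window of its other start held none. No match lay in the windows of ALAS1, SLC25A38, ALAD, UROD or FECH. In all, 10 windows covered 8 of the 9 genes. Of the members with a match, ALAS2 and PPOX passed a test and CPOX did not, and ALAD and FECH passed without one.

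Levels can be compared between genes only per length, here CPM per kilobase of the longest principal transcript. UROD was the highest in every line, at 297 in edit-3, 296 in K/VP.5 and 299 in K562, and its libraries did not overlap those of any other member. ALAD was the lowest, at 4.64 in edit-3, 6.80 in K/VP.5 and 7.11 in K562, also without overlap. FECH followed UROD in edit-3 (39.2) and K/VP.5 (36.3), while in K562 UROS (34) and FECH (33.2) overlapped. Next in edit-3 came SLC25A38 (28), CPOX (24.1) and UROS (23.3), with overlap between neighbours, then PPOX (18.6), ALAS1 (17.9) and ALAS2 (16), which also overlapped in that order. In K/VP.5 the order was SLC25A38 (30.4), ALAS2 (26.6), CPOX (22.9), ALAS1 (18.3) and UROS (16.7), each overlapping the next, then PPOX (13.9) without overlap. In K562 SLC25A38 (30.1) overlapped FECH, and CPOX (21.4), ALAS1 (19.2) and ALAS2 (17.5) followed with overlap, then PPOX (12.6) without. By this length ALAS2 ranked 8th in edit-3, 4th in K/VP.5 and 7th in K562. The order depends on the length used, including the places of ALAS2, PPOX, UROS and ALAD. Over all annotated exons merged, ALAS2 was at 15.2 in edit-3, 25.3 in K/VP.5 and 16.6 in K562. In K/VP.5 it then stood above SLC25A38 (24.1). PPOX was then at 7.04 in edit-3, below ALAS1 (17.2) and ALAS2. By the same length UROS was at 3.35 in edit-3, 2.40 in K/VP.5 and 4.89 in K562. ALAD was then at 2.96, 4.33 and 4.53 in the same order, so that UROS was the lowest in K/VP.5.

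Genes next to each member on its chromosome were compared, since a shift shared by a stretch of genes and a shift of 1 gene cannot be told apart from the gene alone. For UROS, the 10 nearest tested genes on each side span 124619292 to 131982013 of chromosome 10. All 20 neighbours had, in K/VP.5 versus K562, a log2 difference below 0, with a median of -0.51. By the test 12 were lower, where 18.3% of all tested genes were. In edit-3 versus K562, 19 of 20 were below 0, with a median of -0.47, and 10 were lower, where 18.6% of all tested genes were. In edit-3 versus K/VP.5 the median was 0.14, and 13 of 20 shared the sign of UROS, which was higher (0.48). None of the 20 passed edgeR's quasi-likelihood test or DESeq2 there, and 1 was higher and 2 were lower at an unadjusted p under 0.05. The UROS change in both comparisons with K562 thus lay in a region of distal 10q where neighbours were lower too. Of the 20, 2 had in K/VP.5 versus K562 a log2 difference below that of UROS, 1 of them passing the test. In edit-3 versus K562, 8 of the 20 were below UROS, 7 of them passing. The number of gene copies was not measured.

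The neighbours of the other members that changed were read in the same way. Around ALAS2, the neighbours' median was 0.16 in K/VP.5 versus K562, with 6 higher, where 18.3% of all tested genes were. It was -0.17 in edit-3 versus K/VP.5, with 1 higher and 7 lower, where 12.9% and 10.6% of all tested genes were. The ALAS2 values of 0.61 and -0.73 had the same sign as 14 and 16 of the 20. Of these neighbours, 4 in the first comparison and 5 in the second went further than ALAS2 in its direction, and all of them passed the test. Around ALAD, the median was 0.08 in edit-3 versus K/VP.5 and -0.01 in edit-3 versus K562, where 6 and 10 of 20 neighbours shared its sign. Around PPOX, it was 0.04 and -0.04 in the same comparisons, with 11 and 8 of 20 sharing its sign. For FECH in edit-3 versus K562 it was 0.10, with 12 of 20 sharing the sign.

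**Figure D3:**
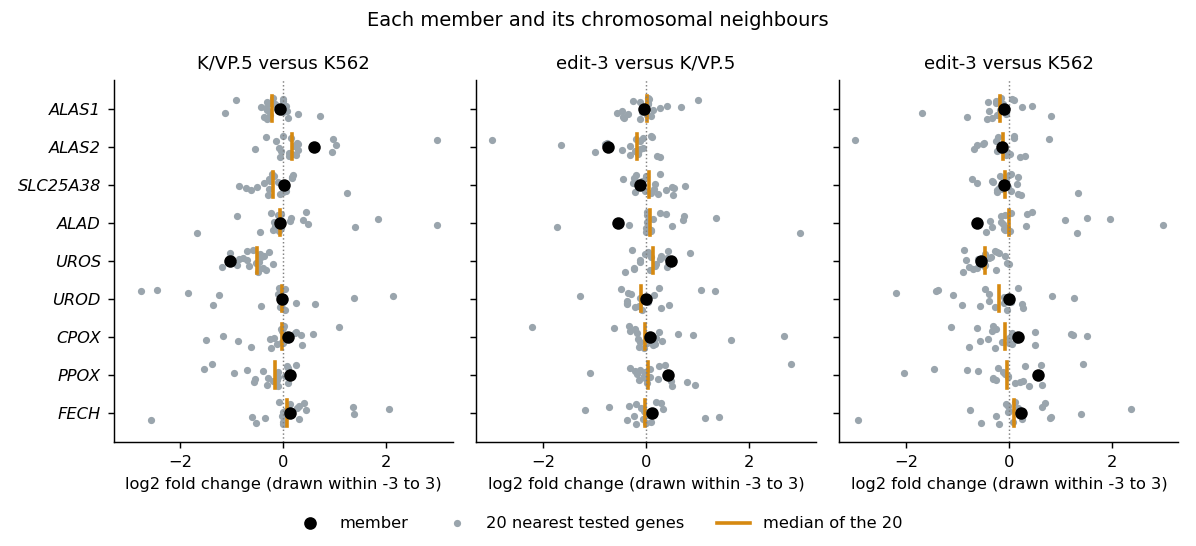
Log2 fold change (horizontal axis, drawn within -3 to 3) of each of the 9 genes (black) and its 20 nearest tested genes on the chromosome (grey), in the 3 comparisons; bars mark the median of the 20. In K/VP.5 versus K562 all 20 UROS neighbours lie below 0 (median -0.51), while those of ALAD in edit-3 versus K/VP.5 lie on both sides of 0 (median 0.08).

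The spread between libraries of a line was taken as the SD of log2 CPM within lines. For CPOX it was 0.55, above 95.9% of the 14096 genes with a mean of at least 1 CPM, whose median was 0.18. For UROD it was 0.062, with 2.31% of genes below it. The other 7 lay between 0.12 (FECH) and 0.24 (ALAS2). Replicate 4 was the highest library in all 3 lines for CPOX, as for 7.0% of genes, and the lowest in all 3 for SLC25A38, ALAD and FECH, as for 4.94% of genes. SLC25A38 was highest in replicate 1 of every line, as were 6.92% of genes. Edit-3 replicate 2 was the lowest library of its line for 5 members, ALAS1, ALAS2, UROD, CPOX and PPOX. The share of all genes lowest in that library is not given, so this is not read as a trait of the members. The labels do not say what a replicate number shares across the lines.

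**Figure D4:**
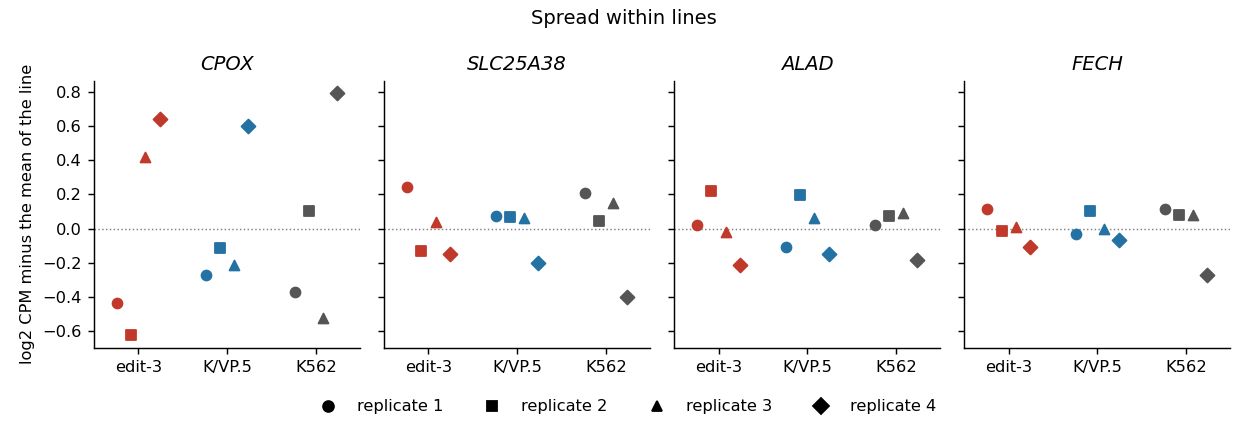
Log2 CPM of each library minus the mean of its line (vertical axis) for CPOX, SLC25A38, ALAD and FECH, by line, with 1 symbol per replicate number. Replicate 4 is the highest library in every line for CPOX and the lowest for the other 3 genes.

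Genes with the most similar profile were looked for among 14095 genes, by the root mean square difference of centred log2 CPM over the 12 libraries. Closest to ALAS2 were TRAPPC2L (0.091), RAB3A (0.13) and AC138028.2 (0.14). TRAPPC2L, for example, averaged 43.4 ± 7.70 CPM in edit-3 cells, 71.5 ± 6.24 CPM in K/VP.5 cells and 45.0 ± 6.45 CPM in K562 cells (SD, n = 4 each). Closest to ALAS1 were CRKL (0.055), LYPLA2 (0.058) and DAPK3 (0.072). For CPOX, looked up after its values were seen, ALDOA (0.200), ANKRD37 (0.21) and NFATC4 (0.21) were closest over the 12 libraries. By deviations within lines alone, AC079466.1 (0.085), TNFRSF12A (0.12) and CERS1 (0.13) were closest to CPOX. All these libraries share their depth and their replicate structure, and likeness of profile says nothing of shared control.

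Genes around the pathway were read from lists, and each count in them moved by at most 2 genes under the alternative settings. Over all tested genes, 18.3% were higher and 18.3% lower in K/VP.5 versus K562, 12.9% higher and 10.6% lower in edit-3 versus K/VP.5, and 20.6% higher and 18.6% lower in edit-3 versus K562. Of 9 genes of porphyrin and heme transport, 1 was higher and 3 were lower in K/VP.5 versus K562 (median log2 0.07, against 0.003 over all tested genes). In edit-3 versus K/VP.5, 4 were higher and 3 lower (median 0.23, against 0.004), and in edit-3 versus K562 2 were higher and 3 lower (0.13, against 0.005). ABCB10, a mitochondrial inner membrane transporter needed for heme synthesis in red cells, averaged 220 ± 14.5 CPM in edit-3 cells, 113 ± 7.45 CPM in K/VP.5 cells and 94.9 ± 14.2 CPM in K562 cells (SD, n = 4 each). Its log2 difference was 0.96 in edit-3 versus K/VP.5 (adjusted p = 5.7e-06) and 1.22 in edit-3 versus K562 (adjusted p = 2.1e-07). In K/VP.5 versus K562 it did not pass (log2 0.26, adjusted p = 0.060), but it did with the replicate number as a block (log2 0.27, adjusted p = 0.0082), with no filter (adjusted p = 0.044) and with K/VP.5 replicate 4 (0.041) or K562 replicate 1 (0.031) left out. ABCG2, an exporter of porphyrins and drugs, was low in every line, at 0.756 ± 0.251 CPM in edit-3 cells, 3.81 ± 0.750 CPM in K/VP.5 cells and 0.392 ± 0.200 CPM in K562 cells. It was higher in K/VP.5 than in K562 (log2 3.25, adjusted p = 1.7e-06) and lower in edit-3 than in K/VP.5 (log2 -2.33, adjusted p = 3.9e-05).

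FLVCR1, a heme and choline transporter, was lower in edit-3 than in K/VP.5 (log2 -0.66, adjusted p = 0.00054). SLC48A1, which moves heme out of lysosomes, was lower than in K562 in K/VP.5 (log2 -1.07, adjusted p = 4.1e-07) and in edit-3 (log2 -0.77, adjusted p = 8.7e-06). PGRMC1, a heme-binding membrane protein known to interact with ferrochelatase, was lower than in K562 in K/VP.5 (log2 -0.27, adjusted p = 0.010) and edit-3 (log2 -0.82, adjusted p = 6.7e-07). The transport genes that moved thus differed in direction within each comparison.

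Of 4 heme degradation genes, 3 were tested, and HMOX1, the inducible heme oxygenase, had 14 reads in all 12 libraries. Between K/VP.5 and K562, 2 were lower in K/VP.5 (median log2 -0.56). BLVRA, a biliverdin reductase, averaged 22.8 ± 1.78 CPM in edit-3 cells, 13.5 ± 0.418 CPM in K/VP.5 cells and 30.3 ± 1.71 CPM in K562 cells (SD, n = 4 each). Its log2 difference was -1.16 in K/VP.5 versus K562 (adjusted p = 4.0e-08), 0.75 in edit-3 versus K/VP.5 (adjusted p = 8.0e-06) and -0.41 in edit-3 versus K562 (adjusted p = 0.00079). HMOX2, the constitutive heme oxygenase, was lower in K/VP.5 than in K562 (log2 -0.56, adjusted p = 0.0086). In edit-3 versus K562, 2 were lower (median -0.41), and the HMOX2 call there (log2 -0.44, adjusted p = 0.031) was lost without edit-3 replicate 2 (adjusted p = 0.091) and under other settings. BLVRA was the 1 gene that was higher in edit-3 than in K/VP.5 (list median 0.12).

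Of 14 genes of iron uptake, storage and sensing, 13 were tested. The test found 3 lower in K/VP.5 versus K562 (median log2 -0.08). In edit-3 versus K/VP.5, 1 was higher and 2 were lower (0.01), and in edit-3 versus K562 5 were lower (0.01), where 18.6% of all tested genes were. The 1 higher gene, TFR2, encoding transferrin receptor 2, did not pass when edit-3 replicate 3 (adjusted p = 0.060), edit-3 replicate 4 (0.096), K/VP.5 replicate 1 (0.11) or K/VP.5 replicate 3 (0.057) was left out. FBXL5, the iron-sensing subunit of a ubiquitin ligase, differed by log2 -0.40 in K/VP.5 versus K562 (adjusted p = 0.0069), -0.46 in edit-3 versus K/VP.5 (adjusted p = 0.0050) and -0.86 in edit-3 versus K562 (adjusted p = 1.1e-05). SLC25A28, a mitochondrial iron carrier, was lower than in K562 in K/VP.5 (log2 -0.62, adjusted p = 0.00036) and edit-3 (log2 -0.81, adjusted p = 2.8e-05). SLC40A1, the iron exporter ferroportin, was likewise lower than in K562 in K/VP.5 (log2 -0.64, adjusted p = 0.0012) and edit-3 (log2 -0.78, adjusted p = 0.00020). STEAP3, an endosomal ferrireductase, was lower in edit-3 than in K/VP.5 (log2 -0.86, adjusted p = 0.0022). The transferrin receptor TFRC did not pass in any comparison, at 2210 ± 430 CPM in edit-3 cells, 1545 ± 370 CPM in K/VP.5 cells and 2333 ± 748 CPM in K562 cells (SD, n = 4 each). With the replicate number as a block it was lower in K/VP.5 than in K562 (log2 -0.58, adjusted p = 0.018).

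All 14 iron-sulfur cluster assembly genes were tested. Between K/VP.5 and K562, 1 was higher and 5 were lower in K/VP.5 (median log2 -0.18), where 18.3% of all tested genes were in each direction. In edit-3 versus K/VP.5, 2 were higher (-0.05), where 12.9% of all tested genes were. In edit-3 versus K562, 4 were higher and 5 lower (-0.06), where 20.6% and 18.6% of all tested genes were. Without K562 replicate 2, 2 were higher in that comparison. The 1 higher gene in K/VP.5 versus K562, HSPA9, a mitochondrial chaperone, did not pass with DESeq2 (adjusted p = 0.065). Nor did it pass when edit-3 replicate 3, any of K/VP.5 replicates 1 to 3, or K562 replicate 2 or 4 was left out (adjusted p of 0.054 to 0.11). With the replicate block, NFS1, the cysteine desulfurase, was also higher in K/VP.5 than in K562 (log2 0.23, adjusted p = 0.027). FDX1, a mitochondrial ferredoxin, was lower in K/VP.5 than in K562 (log2 -0.60, adjusted p = 3.3e-05). GLRX5 (log2 0.61, adjusted p = 5.2e-05) and ISCA2 (log2 0.53, adjusted p = 0.0033) were higher in edit-3 than in K/VP.5. GLRX5 is the mitochondrial glutaredoxin whose loss impairs heme synthesis.

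Of 13 genes that supply glycine and succinyl-CoA or control synthase protein, 12 were tested. In K/VP.5 versus K562 1 was higher (median log2 0.01), in edit-3 versus K/VP.5 2 were higher and 1 lower (-0.07), and in edit-3 versus K562 3 were higher and 1 lower (-0.01). SUCLA2, a subunit of succinyl-CoA synthetase, averaged 68.5 ± 7.32 CPM in edit-3 cells, 61.8 ± 3.31 CPM in K/VP.5 cells and 30.9 ± 5.54 CPM in K562 cells (SD, n = 4 each). It was higher than in K562 in K/VP.5 (log2 1.0, adjusted p = 8.0e-06) and in edit-3 (log2 1.15, adjusted p = 1.7e-06). DLST, the succinyltransferase of the complex that makes succinyl-CoA, was higher in edit-3 than in K/VP.5 (log2 0.59, adjusted p = 5.3e-05) and than in K562 (log2 0.44, adjusted p = 0.00033). SHMT2, a mitochondrial glycine-forming enzyme, was lower in edit-3 than in K562 (log2 -0.55, adjusted p = 0.019).

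**Figure D5:**
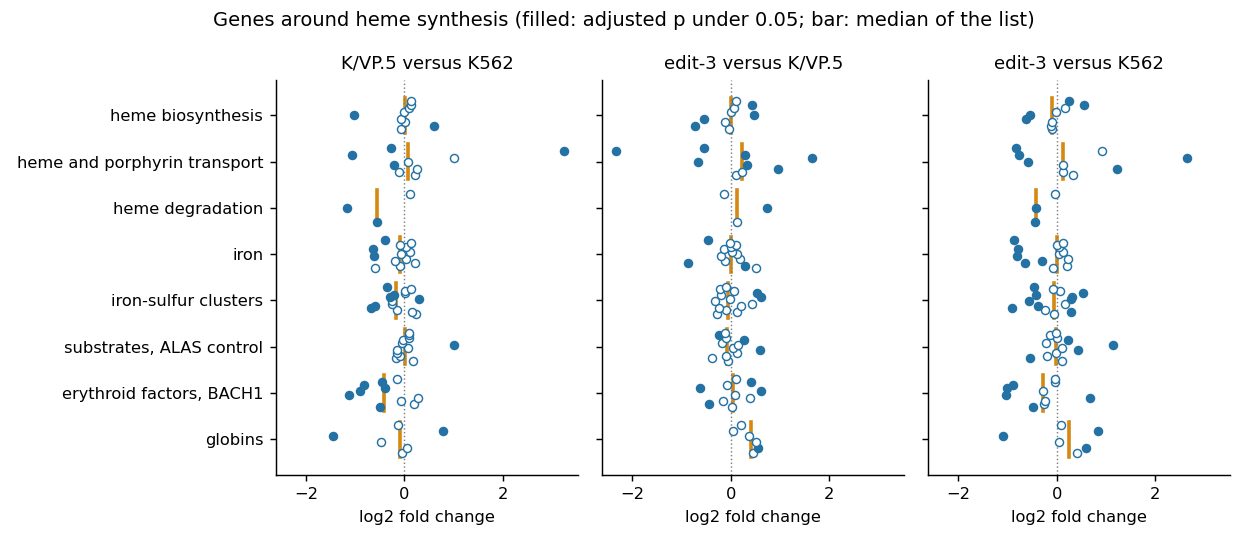
Log2 fold change of the genes in each list around the pathway in the 3 comparisons (horizontal axis); points are genes, filled where they passed the test, and bars mark list medians. In K/VP.5 versus K562 the erythroid transcription factors have a median of -0.42, whereas the 9 heme biosynthesis genes have a median of 0.01.

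Erythroid regulators and globins were set beside the members because heme and globin are made together in red cell precursors. Of 10 genes, 9 erythroid transcription factors or cofactors and the heme-responsive repressor BACH1, 6 were lower in K/VP.5 versus K562 (median log2 -0.42), where 18.3% of all tested genes were lower, while TAL1 was higher with the replicate block (log2 0.29, adjusted p = 0.031). In edit-3 versus K/VP.5, 2 were higher and 2 lower (0.06), and in edit-3 versus K562 1 was higher and 4 were lower (-0.27). NFE2, an erythroid and megakaryocytic factor, averaged 176 ± 15.9 CPM in edit-3 cells, 165 ± 14.6 CPM in K/VP.5 cells and 358 ± 46.4 CPM in K562 cells (SD, n = 4 each). It was lower than in K562 in K/VP.5 (log2 -1.12, adjusted p = 4.7e-07) and in edit-3 (log2 -1.03, adjusted p = 9.8e-07). GATA1, known to drive ALAS2, was lower than in K562 in K/VP.5 (log2 -0.51, adjusted p = 0.00028) and in edit-3 (log2 -0.48, adjusted p = 0.00037). ALAS2 was higher in K/VP.5 than in K562, and a link between the levels of GATA1 and ALAS2 was not tested. Of 6 globin genes, 1 was higher and 1 lower in K/VP.5 versus K562 (median -0.08), 1 was higher (3 without edit-3 replicate 2) in edit-3 versus K/VP.5 (0.41), and 2 were higher and 1 lower in edit-3 versus K562 (0.25). HBG1, a fetal globin, was higher than in K562 in K/VP.5 (log2 0.79, adjusted p = 0.0037) and edit-3 (log2 0.83, adjusted p = 0.0024), but it shares near-identical sequence with HBG2 and its count is uncertain. HBA2 was higher in edit-3 than in K/VP.5 (log2 0.55, adjusted p = 0.012), with the same limit from HBA1. Members and these genes did not all move in the same direction, and no test of a shared change was made.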

How the data were processed

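RNA sequencing counts of 12 libraries, 4 per line, were analysed. The authors deposited whole-number read counts per gene, which sum to different totals and are not normalized. HISAT2 2.1.0, Subread 1.5.1 with featureCounts and the GRCh38 build are named per the submitters' processing notes. The annotation release, the strand setting and the treatment of reads with several matches are not stated in those notes or the labels. Lines came from the source names and replicate numbers from the titles. The free-text description calls every library parental and was not used.

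In R 4.3.3, edgeR 4.0.16 (with limma 3.58.1) filtered low counts with filterByExpr, scaled libraries by TMM and fitted all 12 libraries. Its robust quasi-likelihood test made the 3 comparisons, with Benjamini-Hochberg adjustment over 18286 genes and a threshold of 0.05. The standard error is the log2 fold change divided by the square root of F. The steps were tested on simulated data. Alternatives were DESeq2 1.42.0, its size factors, no filter or a filter of 1 CPM in at least 4 libraries, only the lines compared, the replicate number as a block, and each library left out. The block within 2 lines and the merged-exon lengths were added after seeing the data. Coordinates and lengths are GENCODE 29, which held 99.8% of the gene IDs, and promoters are from RefSeq on GRCh38.p14.

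The members and lists were chosen with earlier results of these data known. From each list, up to 3 genes with the largest absolute log2 fold change among those passing, with a mean of at least 1 CPM, were eligible to be named per comparison. ALAS1 and ALAS2 got the 3 genes with the most similar profile each. TFRC, NFS1, TAL1, HSPA9, ABCB10 in K/VP.5 versus K562, the markers of other cell types and the reads of untested genes are given outside this rule, after their values were seen. Libraries of a line differed by a chi-square of 6.68 to 67.4 per degree of freedom, so none looked like a second copy. Deviations of same-numbered K/VP.5 and K562 libraries from their line means correlated at 0.47, 0.26, 0.22 and 0.68. Unlike numbers reached 0.47 too, for K562 replicate 3 with K/VP.5 replicate 1, and otherwise lay between -0.60 and 0.21. The numbers therefore do not settle a pairing, which the labels do not state. The main fit took no libraries as paired, and the replicate number entered only the alternatives with a block. Edit-3 libraries correlated with their numbers at -0.16 to 0.64 and were not taken as paired either.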

Additional observations from a re-analysis of the deposited data

Results flagged for a closer look

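In 4 of the 27 sets of 4 libraries (9 genes in 3 lines), 1 library stood far from the other 3 by Dixon's criterion. For independent, normally distributed values the criterion flags about 1 in 20. The 9 genes share the same 12 libraries, and the share flagged over all genes is not given. The count is therefore not read as an excess in these genes. SLC25A38 was 56.6 CPM in K/VP.5 replicate 4, and the others were 68.0 to 68.6 CPM. UROD was 361.1 CPM in K/VP.5 replicate 3, below the others at 391 to 397 CPM. CPOX was 94.8 CPM in K/VP.5 replicate 4, above the others at 51.8 to 57.7 CPM. FECH was 105.3 CPM in K562 replicate 4, below the others at 134 to 138 CPM. Of these 4 genes, FECH alone had passed a test, and its call in edit-3 versus K562 was lost without that library (log2 0.16, adjusted p = 0.10).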

How the results depend on the processing

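Of 513 values of the 9 genes under alternatives (27 results, 19 alternatives each), 501 kept their side of the threshold and their direction where called, 12 lost a call and 0 were reversed. All 12 were FECH in edit-3 versus K562, where the call depended on single libraries and on the filter, and the cause was not tested. Its log2 difference was 0.24 (adjusted p = 0.062) with no filter, 0.23 (adjusted p = 0.092) with the 2 lines alone and 0.23 (adjusted p = 0.071) with DESeq2. Leaving out each library gave 2 to 2, 4 to 4 and 3 to 4 of the 9 genes passing in K/VP.5 versus K562, edit-3 versus K/VP.5 and edit-3 versus K562, and 5839 to 7221, 3388 to 4926 and 6478 to 7553 of all genes. With the replicate number as a block, 2, 4 and 4 of the 9 genes and 7681, 5494 and 8121 of all genes changed, in the same order. No call of the 9 genes changed under the replicate block, and it added the calls of ABCB10, TFRC, NFS1 and TAL1 given above for K/VP.5 versus K562. Edit-3 replicates 1 and 4 correlated with their number (0.45 to 0.64) and replicates 2 and 3 hardly (-0.16 to 0.058), and the block added calls of list genes there too. Of 89 calls of list genes, 74 were kept in every alternative and 0 were reversed. Per kilobase levels depend on the length used, above all for UROS. Each of the 9 genes had at least 400 reads in every library, and the spread between libraries set the width of the CPOX intervals.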
